A study of Mus musculus with 6 samples.

Results

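Osteocytes are the cells left inside mineralized bone after osteoblasts have surrounded themselves with matrix. They signal through long processes, hold back bone formation by secreting the Wnt inhibitor sclerostin, and control phosphate through proteins of the matrix and the hormone FGF23. As a cell is buried, Pdpn, Dmp1 and Phex come on early, while Sost, Mepe and Fgf23 mark the late, fully embedded osteocyte. The genes described here are these 6 with Fam20c and Irx5, 8 in all, taken as the rows of the authors' deposited table that carry their symbols. There were 7 such rows among the 23170 genes of the table, and Fgf23 had none, so that it is not analysed here.

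RNA was sequenced from the bone beneath the cartilage of the mandibular condyle, the jaw's side of the temporomandibular joint, after partial discectomy, the removal of part of the joint disc, or after a sham operation. Each group has 3 libraries. All mice were wild type, carried the age label P6w+PO2w, whose prefixes are not explained, and were operated on 1 side, with bone taken from the operated joint. Whether each library is a separate mouse is not in the labels, so p-values measure a spread that may be partly technical. The number 6 opens the description of 1 library in each group, and if it marks a shared animal, the limma and permutation tests below, which take all 6 libraries as independent, ignore that. The table's group columns end in LPD and Rctrl, as do the sample descriptions, and are not explained, so anything further that they mark cannot be told apart from the operation.

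Values are reads per 1000000 reads of a library (CPM). The deposited table gives group means, the highest library and the geometric mean of CPM plus 1. The highest values lay on 6 regular spacings, each equal to 1000000 divided by a whole number, which gave the 6 library totals by which the reads had been divided. The totals were 40192428, 40975541 and 42583693 reads after partial discectomy and 38521779, 39440208 and 46799333 reads in sham. The libraries are named below by group and total in units of 1000000 reads, as PD 40.2, PD 41.0 and PD 42.6 and as Sham 38.5, Sham 39.4 and Sham 46.8. They cannot be matched to the numbered sample titles. For 4974 genes, 21.5% of the table, a single set of whole reads in the 6 libraries gave the group means, the highest value and the geometric mean. Of the 7 osteocyte genes in the table, 3 were among these: Dmp1, Mepe and Sost. For the other 4 no set of whole reads was found, and they are given by group mean.

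Library Sham 38.5 was low in several bone genes. Dmp1, Mepe and Sost were each at their lowest in it, as were 23.1% of the 1933 recovered genes with a mean of at least 1 CPM. Library PD 42.6 held the highest value of all 4 osteocyte genes whose highest library is known, against 22.9% of all genes whose highest library is known. The limma differences of Dmp1, Mepe and Sost are given below with and without these libraries, and the group ratios of those genes, Pdpn and Irx5 with and without the highest library. Blood cell genes were far higher after partial discectomy: 8 of 10 neutrophil genes and 9 of 9 erythroid genes rose in the authors' deposited table. The 4 recovered neutrophil genes Camp, Ngp, Mmp8 and Elane summed to 473, 311 and 847 CPM in PD 40.2, PD 41.0 and PD 42.6, against 22.01, 26.0 and 76.9 CPM in Sham 38.5, Sham 39.4 and Sham 46.8. The library highest in these neutrophil genes, PD 42.6, is also the highest in those 4 osteocyte genes. The part of this in the results was not tested.

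The start regions of the 4 members with the highest levels per kilobase of exon are shown to compare their sequence. The sequences are from RefSeq on GRCm38.p6, the patch release of mm10. For Dmp1, which has more than 1 listed start, the window at the annotated gene start is shown. Each line holds the 100 bases before the listed start, 5′ to 3′ on the gene's strand, with TTTAAA and TGTGGT in capitals.
Dmp1, chr5:104202517-104202616, plus strand: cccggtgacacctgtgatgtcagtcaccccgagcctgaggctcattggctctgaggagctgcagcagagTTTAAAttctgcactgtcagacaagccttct
Mepe, chr5:104325229-104325328, plus strand: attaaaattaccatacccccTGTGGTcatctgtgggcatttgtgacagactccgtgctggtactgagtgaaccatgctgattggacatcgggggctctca
Phex, chrX:157415287-157415386, minus strand: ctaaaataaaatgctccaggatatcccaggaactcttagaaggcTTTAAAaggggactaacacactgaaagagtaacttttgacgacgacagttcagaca
Sost, chr11:101967016-101967115, minus strand: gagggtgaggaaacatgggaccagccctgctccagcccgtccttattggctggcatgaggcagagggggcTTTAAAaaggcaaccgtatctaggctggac

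Start windows were listed for 7 of the 8 genes, with none for Irx5. TTTAAA, which reads the same on both strands, lay within the 100 bases before a start in 5 of these 7 genes: Dmp1, Phex, Sost, Pdpn and Fgf23. It lay there in 4.56% of all 32851 listed windows. Its last base stood 26, 51 and 25 bases before the listed start in Dmp1, Phex and Sost. TGTGGT, the core bound by Runx factors, was searched on both strands of the 250 bases before a start and does not overlap TTTAAA. It was present for Dmp1 and Mepe, against 14.0% of all windows. TTTAAA was chosen after the sequences had been seen, and its window was widened after a first search from 20 to 45 bases before the start, which held it in 4 of the 7 genes and in 1.69% of all windows. A match describes letters and is not a binding site, and the lack of TTTAAA before Mepe concerns these letters in this window alone.

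No osteocyte gene passed the threshold after partial discectomy. At an adjusted p under 0.05 in the authors' deposited table, 0 of 7 were called in either direction, where 2.38% of all genes were called, 2.28% as higher and 0.104% as lower. At an unadjusted p under 0.05 there were also 0 of 7, against 14.2% of all genes. The ratio of partial discectomy over sham was above 1 for 6 of 7 genes, against 62.7% of all genes, and the median log2 ratio was 0.63, against 0.08 over all genes. The deposited 95% limits of Dmp1, Mepe, Sost and Phex leave a several-fold rise within them. Their lower limits, 0.768, 0.972, 0.562 and 0.534, leave a fall within them too.

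**Figure D1:**
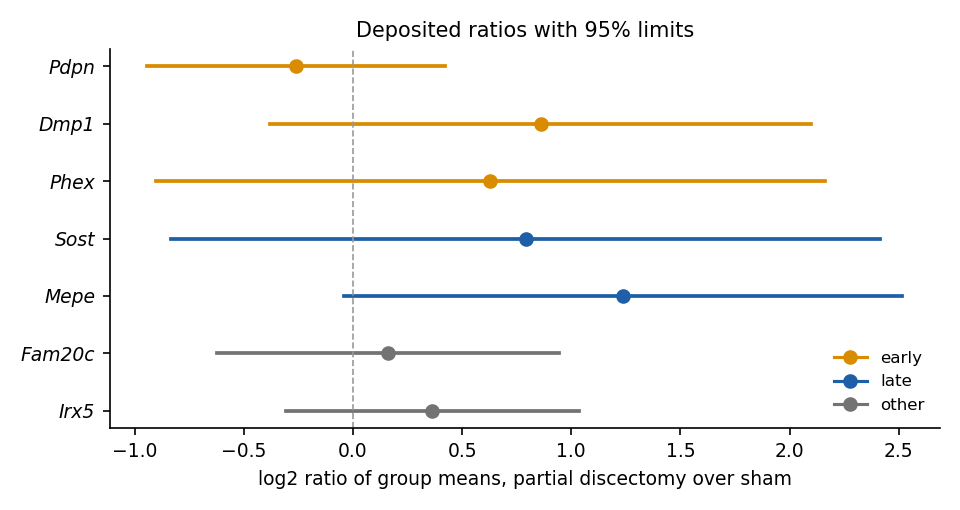
Log2 ratio of the group means of CPM plus 1, partial discectomy over sham, for 7 osteocyte genes (points) with the 95% limits of the authors' deposited table (lines), coloured as early, late or other genes. Every line crosses 0, and Pdpn is the 1 gene below it.

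Among the early genes, Dmp1 was the most abundant. It encodes dentin matrix protein 1, an acidic matrix protein of the SIBLING family that osteocytes secrete into the bone around them, and spans 104202613 to 104214102 on chromosome 5 (mm10, plus strand). Dmp1 stood at 512, 322 and 797 CPM in PD 40.2, PD 41.0 and PD 42.6, against 99.7, 341 and 456 CPM in Sham 38.5, Sham 39.4 and Sham 46.8. The groups overlap: the lowest partial discectomy library is below 2 of the 3 sham libraries. The means were 543 ± 239 CPM after partial discectomy and 299 ± 182 CPM in sham (SD, n = 3 each). By the authors' deposited table this is a ratio of 1.81, with 95% limits of 0.768 and 4.28 and an adjusted p of 0.449. Without library PD 42.6, which held 48.9% of that group's total, the ratio was 1.39.

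The other early genes, Phex and Pdpn, had ratios nearer to 1. Phex, an endopeptidase of the cell surface whose loss raises FGF23 and causes phosphate wasting, lies at 157162075 to 157415312 on the X chromosome (minus strand). Its group means were 224 CPM after partial discectomy and 145 CPM in sham, and its highest library, at 322 CPM, may lie in either group by these numbers. Its ratio was 1.55, with limits of 0.534 and 4.47 and an adjusted p of 0.594, by the authors' deposited table. GENCODE also places a processed pseudogene, Gm15172, inside Phex on the same strand, so reads there may count for either. Pdpn, also called E11, is a membrane glycoprotein needed for the first osteocyte processes, on chromosome 4 at 143267431 to 143299564 (minus strand). It averaged 10.8 CPM after partial discectomy and 13.1 CPM in sham, and the authors' deposited table has the ratio as 0.836, with limits of 0.521 and 1.34 and an adjusted p of 0.674.

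Pdpn was lower in the mean although its highest value, 16.6 CPM, lay in library PD 42.6. The other 2 partial discectomy libraries averaged 7.85 CPM, and without the highest library the ratio was 0.629. Pdpn is also made by lymphatic endothelium and by fibroblasts of joint lining. Of 6 lymphatic genes none was called by the authors' deposited table, against 2.38% of all genes. Of their ratios 3 were above 1, against 62.7% of all genes, and the median log2 ratio was -0.20. The summed level of the list was 30.7 CPM after partial discectomy and 26.4 CPM in sham. Flt4 made up 17.2 and 9.06 CPM of these sums, and Lyve1, named for its share, 2.37 and 9.14 CPM. The ratio of Lyve1 was 0.332, with limits of 0.121 and 0.915 and an adjusted p of 0.514, by the authors' deposited table. Of the lymphatic genes, Mmrn1 stood at a ratio of 2.41 with an adjusted p of 0.0919, and Prox1, the factor that defines lymphatic identity, at 0.702 with an adjusted p of 0.155, by the authors' deposited table. Ccl21a stood at 0.721 there. Of 7 genes of joint lining and fibrous tissue 2 rose in the authors' deposited table, the fibroblast progenitor markers Pi16 (3.08-fold, 1.87 to 5.06) and Dpp4 (2.24-fold, 1.52 to 3.30). Of the 7 ratios 4 were above 1, with a median log2 ratio of 0.10. The summed level of this list was 505 CPM after partial discectomy and 541 CPM in sham. The part of both lists in the level of Pdpn was not tested. In bulk RNA, fewer cells of a type and less RNA per cell cannot be told apart.

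Among the late genes, Mepe had the highest ratio of the 7 genes. It encodes another SIBLING protein, whose acidic peptide slows mineralization, and lies 111 kb from Dmp1 on the same strand of chromosome 5 (104325329 to 104338611), with the SIBLING gene Ibsp between them. Mepe had 106, 41.1 and 217 CPM in PD 40.2, PD 41.0 and PD 42.6, against 23.9, 70.3 and 58.7 CPM in Sham 38.5, Sham 39.4 and Sham 46.8. The highest 2 libraries were both from partial discectomy, while the third lay below 2 sham libraries. The means were 121 ± 88.8 CPM after partial discectomy and 50.9 ± 24.1 CPM in sham (SD, n = 3 each). By the authors' deposited table this is a ratio of 2.36, with limits of 0.972 and 5.72 and an adjusted p of 0.441. Library PD 42.6 made up 59.5% of the summed Mepe level after partial discectomy, and without it the ratio was 1.44.

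Sost, which encodes sclerostin, lies on chromosome 11 at 101962458 to 101967015 (minus strand). Sost had 43.8, 25.0 and 87.3 CPM in PD 40.2, PD 41.0 and PD 42.6, against 5.06, 51.3 and 32.6 CPM in Sham 38.5, Sham 39.4 and Sham 46.8. The sham group alone spanned a 10.1-fold range and the partial discectomy group a 3.50-fold range. The lowest sham value rests on 195 reads and the highest partial discectomy value on 3717, so counting error is small beside these ranges. The means were 52.0 ± 32.0 CPM after partial discectomy and 29.6 ± 23.2 CPM in sham (SD, n = 3 each), for which the authors' deposited table has a ratio of 1.73, limits of 0.562 and 5.33 and an adjusted p of 0.545. Without the highest library, which held 55.9% of the partial discectomy total, the ratio was 1.16.

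**Figure D2:**
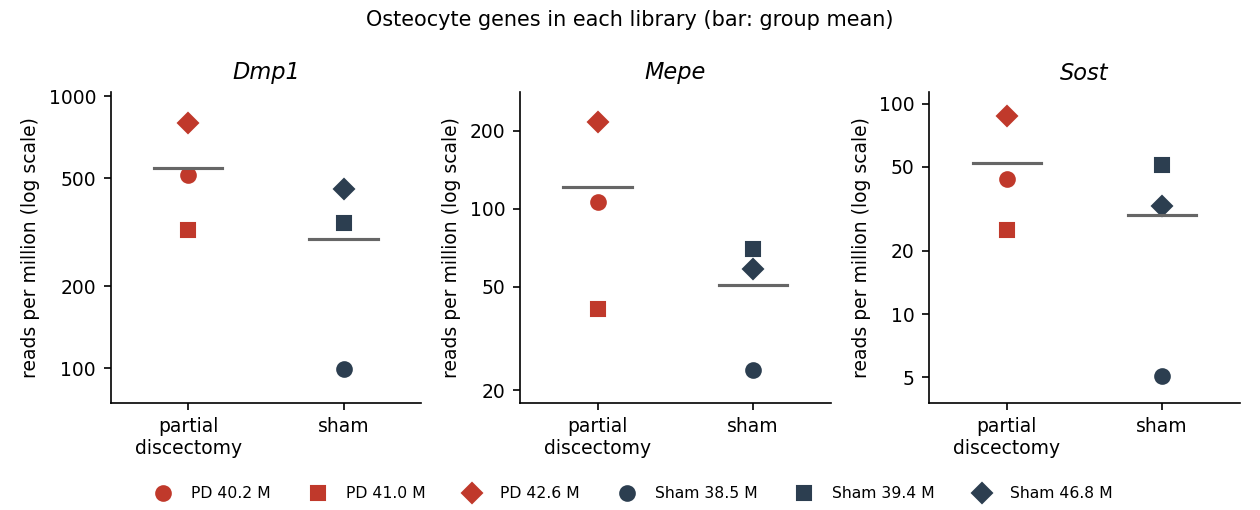
CPM of Dmp1, Mepe and Sost in each of the 6 libraries on a log axis, partial discectomy on the left and sham on the right of each panel, with a bar at the group mean and symbols named by the library total in units of 1000000 reads. In each panel library PD 42.6 is the highest and library Sham 38.5 the lowest, and the groups overlap.

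A second test on the recovered libraries made no call either. With limma on log2(CPM + 1) over the 4974 recovered genes, 2.98% of which were called at an adjusted p under 0.05, 0 of the 3 genes passed. The log2 difference, partial discectomy minus sham, was 1.02 ± 0.439 (SE) for Dmp1 (limma, unadjusted p = 0.0295, adjusted p = 0.316). It was 1.07 ± 0.476 for Mepe (limma, unadjusted p = 0.0345, adjusted p = 0.343) and 1.09 ± 0.557 for Sost (limma, adjusted p = 0.433). At an unadjusted p under 0.05 limma called 12.8% of the recovered genes. The exact two-sided permutation test over the 6 libraries gave p = 0.30 for Dmp1 and Mepe and p = 0.50 for Sost, or 0.45, 0.45 and 0.50 when adjusted over the 3 genes. With 3 against 3 libraries that test cannot go below 0.10.

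These differences depended on the 2 libraries at the ends. Without library Sham 38.5, the limma log2 difference was 0.36 for Dmp1, 0.61 for Mepe and 0.16 for Sost. Without library PD 42.6, it was 0.70 for Dmp1, 0.51 for Mepe and 0.63 for Sost. Leaving out library PD 41.0 raised the differences to 1.35, 1.69 and 1.52 for Dmp1, Mepe and Sost. Without library Sham 39.4 that of Sost was 1.72. None passed an adjusted p under 0.05 in limma, the smallest being 0.0815 for Mepe.

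Dmp1, Mepe and Sost were correlated across libraries. On log2(CPM + 1) over the 6 libraries, Pearson's r was 0.95 for Sost and Dmp1 (exact permutation p = 0.0222), 0.91 for Sost and Mepe (exact p = 0.00833) and 0.91 for Dmp1 and Mepe (exact p = 0.0111). Spearman's rho was 0.83, 0.94 and 0.94 for these pairs (exact permutation p = 0.0583, 0.0167 and 0.0167). Adjusted over the 3 pairs by Benjamini-Hochberg, the exact p for Pearson's r was 0.0222, 0.0167 and 0.0167, and that for Spearman's rho was 0.0583, 0.025 and 0.025. Without the 2 libraries farthest from the median, PD 42.6 and Sham 38.5, r was 0.27, 0.80 and 0.73 over 4 libraries. The fall was largest for Sost and Dmp1. Leaving out extreme values narrows the range and tends to lower r, so it cannot show what a correlation rests on. With each group's mean subtracted, r was 0.95, 0.88 and 0.87 for these pairs, as a description over the same 6 libraries. The 3 libraries of a group are too few for a correlation within each.

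Set against the early gene Dmp1, the late genes Sost and Mepe showed no difference between the groups beyond the spread. The median log2 ratio was 0.63 over the 3 early genes and 1.01 over the 2 late genes in the table, a difference of -0.39 (early minus late), for which genes of the same libraries allow no test. Within each library the late genes were therefore set against Dmp1, which takes out any change shared by both. The early genes Phex and Pdpn have no values per library and are not in this comparison. Sost reads made up 8.57%, 7.76% and 10.96% of Dmp1 reads in PD 40.2, PD 41.0 and PD 42.6, against 5.08%, 15.0% and 7.14% in Sham 38.5, Sham 39.4 and Sham 46.8. The partial discectomy values all lay inside the sham range.

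Mepe reads made up 20.8%, 12.8% and 27.2% of Dmp1 reads in PD 40.2, PD 41.0 and PD 42.6, against 24.0%, 20.6% and 12.9% in Sham 38.5, Sham 39.4 and Sham 46.8. The groups overlap over nearly their whole range. The log2 difference of the late-to-early ratio, partial discectomy minus sham, was 0.14 for Sost over Dmp1 and 0.06 for Mepe over Dmp1 (exact two-sided permutation test, p = 0.80 for both, also when adjusted over the pair, n = 3 per group). The SD of this log2 ratio was 0.26 after partial discectomy and 0.80 in sham for Sost, and 0.55 and 0.47 for Mepe. With 3 libraries a group, a difference smaller than these spreads was not detectable.

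**Figure D3:**
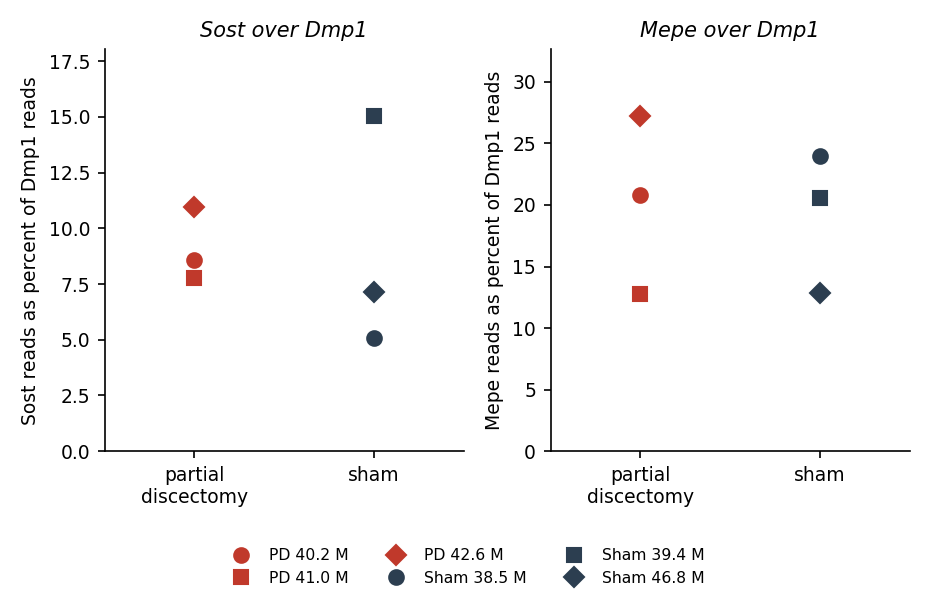
Reads of the late genes Sost and Mepe as a percentage of the reads of the early gene Dmp1 in each library, partial discectomy on the left and sham on the right, on linear axes from 0. The Sost values after partial discectomy, 7.76% to 10.96%, lie inside the sham range of 5.08% to 15.0%.

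Fam20c and Irx5 differed least from sham among the genes above 1. Fam20c, the secretory-pathway kinase that phosphorylates SIBLING proteins and FGF23, lies on chromosome 5 at 138754514 to 138810077 (plus strand). It averaged 40.6 CPM after partial discectomy and 36.2 CPM in sham, and the authors' deposited table has the ratio as 1.12, with limits of 0.649 and 1.92 and an adjusted p of 0.795. Irx5, a homeobox transcription factor of the Iroquois family, lies on chromosome 8 at 92357625 to 92376286 (plus strand). It averaged 24.7 CPM after partial discectomy and 19.0 CPM in sham, and the authors' deposited table has the ratio as 1.29, with limits of 0.808 and 2.05 and an adjusted p of 0.622. The highest Irx5 value, 31.9 CPM, had to lie in a partial discectomy library, and without it the ratio was 1.11.

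Per kilobase of exon, Dmp1 had the highest level of the 7 genes in both groups. It stood at 197 CPM per kb after partial discectomy and 108 in sham, followed by Mepe (72.2 and 30.3), Phex (35.6 and 23.0) and Sost (25.2 and 14.3). The other 3 lay together, with Irx5 at 7.90 and 6.07, Fam20c at 6.15 and 5.50, and Pdpn at 5.92 and 7.19 CPM per kb after partial discectomy and in sham. In each of the 6 libraries Dmp1 was above Mepe and Mepe above Sost on this scale. For the other neighbours in the order the values per library are not known.

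The counts of related lists stand beside those of all genes, of which 2.38% were called and 62.7% had a ratio above 1. These shares hold for each list below. Of 11 further osteocyte genes with a row, 0 were called, which is near that share for so short a list. At an unadjusted deposited p under 0.05 there were also 0, against 14.2% of all genes. Their median log2 ratio was 0.09, against 0.08 over all genes, and 8 of them stood above 1. Dkk1, a secreted Wnt antagonist like sclerostin, had 31.4, 15.7 and 53.6 CPM in PD 40.2, PD 41.0 and PD 42.6, against 5.01, 21.9 and 29.0 CPM in Sham 38.5, Sham 39.4 and Sham 46.8. The authors' deposited table has its ratio as 1.76, with limits of 0.702 and 4.43 and an adjusted p of 0.514, and its order over the libraries matched that of Dmp1. Tnfsf11, which encodes the osteoclast-forming signal RANKL, ran the other way, with 13.2, 7.20 and 16.9 CPM after partial discectomy, against 24.1, 18.4 and 13.8 CPM in the sham libraries, each in the same library order. Tnfrsf11b, which encodes the RANKL decoy receptor osteoprotegerin, had 22.6, 10.3 and 36.5 CPM after partial discectomy, against 15.1, 22.7 and 32.8 CPM in sham, and Ackr3, a chemokine receptor, 26.2, 14.3 and 32.8 CPM, against 19.7, 26.9 and 25.6 CPM. By the authors' deposited table the ratio of Tnfsf11 was 0.681, with limits of 0.423 and 1.10 and an adjusted p of 0.427, that of Fbln7 was 0.639 and that of Ptprz1 was 1.27.

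**Figure D4:**
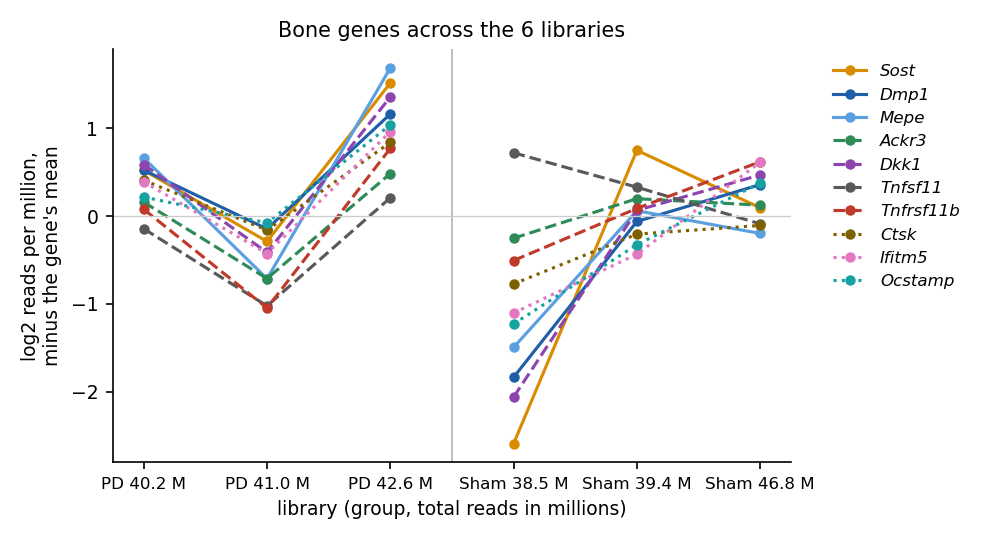
Log2 CPM in each library minus the gene's mean over the 6 libraries, for the 10 recovered genes of the osteocyte, osteoblast, bone remodelling enzyme and osteoclast lists, partial discectomy on the left and sham on the right. Lines join the values of 1 gene and imply no order of libraries. Of these, 7 are lowest in library Sham 38.5 and 9 are highest in library PD 42.6. Ackr3, Tnfrsf11b and Tnfsf11 are lowest in PD 41.0, and Tnfsf11 is highest in Sham 38.5.

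The other SIBLING genes in the table, Spp1 (osteopontin) and Ibsp (bone sialoprotein), stood at ratios of 1.90 (limits 0.769 and 4.70) and 1.61 (limits 0.690 and 3.74) by the authors' deposited table, with 0 of 2 called, and Dspp had no row. Both genes are also in the osteoblast list below. The highest Ibsp value also lay in library PD 42.6. Of 12 genes of the FGF23 and phosphate axis 0 were called, 9 ratios were above 1, and the median log2 ratio was 0.29. Xpr1, a phosphate exporter, stood at 1.49 (limits 0.982 and 2.26) and Galnt3, which protects FGF23 from cleavage, at 1.45 (limits 0.819 and 2.55) by the authors' deposited table. The phosphate transporter Slc20a2 stood at 1.41 and the mineralization phosphatase Phospho1 at 1.44 there. Kl, Ankh and Cyp24a1 had no row under those symbols, while Ank had one.

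Of 10 partners and relatives of sclerostin 0 were called, 7 ratios were above 1, and the median log2 ratio was 0.21. At an unadjusted p under 0.05 there was 1 higher and 1 lower. Lef1, a Wnt transcription factor and target, stood at a ratio of 1.83 with an adjusted p of 0.181, and Axin2, a feedback target of Wnt signalling, at 0.530 with an adjusted p of 0.306, by the authors' deposited table. Lrp4, the receptor that presents sclerostin, had a log2 ratio of 0.59, and the sclerostin relative Sostdc1 one of -0.38, by the authors' deposited table. Of 4 relatives of Fam20c with a row, 0 were called, and the authors' deposited table has Fam20b at 0.940 and Fam20a at 1.15. Irx3 and Irx6, the Iroquois genes with a row beside Irx5, stood at 1.12 and 1.10 by the authors' deposited table.

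Of 14 osteoblast genes 0 were called, 12 ratios were above 1, and the median log2 ratio was 0.39. Of 7 enzymes that osteocytes are known to share with osteoclasts for remodelling the bone around them, the authors' deposited table called 1, Car2, which rose 7.69-fold with limits of 4.18 and 14.1 and an adjusted p of 0.00937. Car2 is a gene of red cells, whose list rose, as well as of osteoclasts, whose list is given below. The part of either cell type in the rise of Car2 was not tested. The other enzymes of smallest p were Acp5 at 2.13 (0.974 to 4.66), Atp6v0d2 at 1.68 and Ctsk at 1.68 (0.974 to 2.91), per the authors' deposited table. Ctsk had 784, 529 and 1058 CPM in PD 40.2, PD 41.0 and PD 42.6, against 346, 513 and 549 CPM in Sham 38.5, Sham 39.4 and Sham 46.8, and again the same 2 libraries stood at the ends. All 10 osteoclast genes had ratios above 1 with 0 called and 5 at an unadjusted p under 0.05, and all 9 skeletal muscle genes had ratios below 1 with 0 called.

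The genes most alike in pattern were sought among 1932 other recovered genes with a mean of at least 1 CPM, by Pearson's r of log2(CPM + 1) over the 6 libraries, as a description. For Dmp1 these were Steap4 and Itga2 (r of 1.00 and 0.99), Dkk1 (0.99), Clec14a (0.99) and Tmem178 (0.99). For Sost they were 1300014J16Rik, Tmed8, Clec14a, Gm17308 and Steap4, with r between 0.96 and 0.99. For Mepe they were Atg5, Mtln, Snapc5, Tmem86a and Tnfsf8, with r between 0.98 and 1.00. All of these values share the same 6 libraries. By the same measure Dmp1 ranked 13 and Mepe 44 for Sost, Sost ranked 29 and Mepe 82 for Dmp1, and Sost ranked 78 and Dmp1 79 for Mepe. Some genes outside the set were therefore closer in pattern to each member than the other members were. The other members still ranked within the first 82 of the 1932 genes.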

How the data were processed

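The submitters' processing notes name STAR 2.6.1d and mm10. The counter, gene filter and statistics were not given in the sources used here. The deposited group means, highest value and geometric mean were read as CPM plus 1, and the deposited total as a signal summed over the 6 libraries. This unit follows from the values: 6810 of the 23170 highest values were whole multiples, to within 1e-06 reads, of 1000000 over 6 whole numbers. Each total's group was fixed by genes whose highest value exceeded all reads of the other group. CPM printed here has the 1 subtracted. The deposited ratio and log2 ratio are of CPM plus 1, partial discectomy over sham, and the deposited fold limits, entered as a score because they are signed, were turned into ratios. The deposited p-value is from a model that is not named, and the deposited adjusted p equals Benjamini-Hochberg over 23170 genes. A call is an adjusted p under 0.05.

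Whole reads were solved from both group means and the highest value, and a solution was kept if its summed logarithm met that of the geometric mean within 1e-12, a limit tightened after a looser one had let in a few solutions with far larger errors than the rest. The recovery, limma and permutation were added after seeing the data. On simulated data with 4974 genes all 6 totals and all reads were recovered. The simulation held whole reads alone, so it cannot show how the recovery treats other values. In the data the highest value of 16360 genes was not whole reads. The recovered genes were tested with limma 3.58.1 (R 4.3.3) with a trend, on log2(CPM + 1) with a pseudocount of 1, and single values with exact permutation (scipy 1.17.1). On simulated data limma called 22% of genes changed by 1 on the log2 scale and 97% of those changed by 2, and 5 unchanged genes, so a change of the size seen here would often be missed. The simulation gave every gene the same spread, smaller relative to its mean than that of Dmp1, Mepe and Sost. Both percentages may therefore be too high for genes as variable as these. A count test across all genes, planned earlier, could not be run, and the authors' statistics take its place. Gene lengths and positions are from GENCODE M21.

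The members and gene lists were chosen with earlier results of these data known. Named genes are all members, and of each further list up to 4 called genes or else those of smallest p. Lyve1 was added for its share of a summed level. The neutrophil, erythroid, muscle, chondrocyte and osteoclast lists are given as counts. Alternatives were an added or subtracted offset, 2 centrings, 2 filters on low values, an unadjusted threshold and the removal of libraries.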

Additional observations from a re-analysis of the deposited data

How the results depend on the processing

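The count of 0 osteocyte genes called stayed at 0 when readjusted over the 15911 genes with a mean of at least 1 CPM and over the 10286 with at least 5, at an unadjusted deposited p under 0.05, and at an adjusted p under 0.05 in limma with all libraries or without each in turn (lowest 0, highest 0). Readjusting could not have called a member, since an adjusted p is never below the unadjusted p, and the smallest deposited one was 0.0904 (Mepe). In limma with all libraries Dmp1 and Mepe had an unadjusted p under 0.05. Over the 68 alternatives run for single members, all 68 kept the direction. Many of them could not have turned it: readjusting leaves the ratio as it is, and an offset shared by both means keeps their order. Nor could the centrings or the removal of the highest library turn Pdpn, as they lower its ratio further. An adjusted p exists for 35 of the 68 and was under 0.05 for 0, while the other 33, which shift, centre or recompute the means, have no test. With a library left out, the limma log2 difference ran from 0.36 to 1.46 for Dmp1, 0.51 to 1.69 for Mepe and 0.16 to 1.72 for Sost. Set against the summed means, the log2 ratio of Fam20c was 0.03. The early minus late difference was -0.40 with the offset of 1 subtracted and -0.37 with 1 more added. Of 115 other list genes with a row, 20 were called, against 2.38% of all genes. Of these 20, 8 were neutrophil and 9 were erythroid genes. Over genes with at least 5 CPM 15 were called. At an unadjusted deposited p under 0.05 there were 32, against 14.2% of all genes. No paired analysis was possible because the recovered libraries cannot be matched to the numbered titles. The count tests with edgeR or DESeq2 and without a gene filter were not run, since whole reads were recovered for 21.5% of genes. The reads behind Dmp1, Mepe and Sost, 195 to 33928 a library, make counting error small beside the spread between libraries.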

Other observations

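The 3 recovered genes of the chondrocyte list, Col10a1, Sox9 and Matn3, were highest in a sham library. Col10a1, the collagen of hypertrophic chondrocytes, had 590, 261 and 508 CPM in PD 40.2, PD 41.0 and PD 42.6, against 111, 397 and 1285 CPM in Sham 38.5, Sham 39.4 and Sham 46.8. Library Sham 46.8 was the highest for Col10a1, as it was for Sox9, the transcription factor of chondrocytes, at 126 CPM, and for the cartilage matrix gene Matn3 at 24.9 CPM. Col10a1 was lowest in library Sham 38.5, as were Dmp1, Mepe and Sost. Other cartilage genes went otherwise: Chad and Clec3a, outside that list and chosen after their values were seen, were highest in PD 42.6 and lowest in Sham 38.5. Of 9 chondrocyte genes 0 were called in the authors' deposited table, against 2.38% of all genes. Of their ratios 4 were above 1, against 62.7% of all genes. The list genes given by library are those whose reads were recovered.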
